A study of Mus musculus with 6 samples.

Results

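High endothelial and venular cells were compared between lymph nodes draining 2 mouse melanomas. The cells were chosen from raw counts of unique molecular identifiers (UMIs, 1 per captured RNA molecule) in CD45-depleted single-cell libraries. A cell was kept at 1000 UMIs or more, 500 genes or more and at most 10% mitochondrial UMIs. It was a member if Pecam1 and Cdh5 together gave at least 2 UMIs, if Prox1, Cd79a and Cd3e gave none, and if at least 2 of the 5 identity genes Chst4, Fut7, Ackr1, Sele and Selp were detected. The rule found 106 members among 13581 kept cells of the 2 compared libraries, 73 from the YUMMER1.7 library and 33 from the YUMM1.7 library, and the 6 libraries of the series held 49650 kept cells. The members were thus picked by their own transcripts, so values of the 10 genes in the rule are given as a description.

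The libraries came from inguinal and axillary nodes of C57Bl/6 mice that carried YUMMER1.7 tumours, carried YUMM1.7 tumours or had no tumour. The transplantable mouse line YUMM1.7 was exposed to ultraviolet light to derive YUMMER1.7, which provokes a stronger immune response. The labels call the fraction de-enriched for CD45, whereas the protocol text speaks of a positive stromal enrichment with CD45 beads. Nodes of several animals were pooled into each library, no ages are given, and about 10000 cells per library were loaded for 3′ sequencing. With 1 library per tumour line there is no replicate and no test between lines. Intervals in brackets are exact 95% intervals that cover counting error only, and CPM gives a gene's part of all UMIs of the cells summed, where 10000 CPM equal 1%.

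High endothelial venules are the postcapillary vessels through which naive lymphocytes enter a lymph node. Their tall endothelial cells decorate sialomucins such as GlyCAM-1 and CD34 with sulfated, fucosylated sugars that L-selectin on lymphocytes binds, and they present the chemokine CCL21 that arrests rolling cells through CCR7. The phenotype depends on lymphotoxin-beta receptor signalling to NF-kB. In inflamed nodes these vessels can lose parts of it, and adjoining venules display P- and E-selectin, which bind other leukocytes.

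The depleted libraries held 67709285 UMIs over 7500 barcodes (YUMMER1.7) and 76861915 UMIs over 9897 barcodes (YUMM1.7). Members carried a median of 20855 UMIs in YUMMER1.7 and 15028 UMIs in YUMM1.7, and the largest number of barcodes shared by any pair of the 6 libraries was 49. The 2 compared libraries shared 12 barcodes, none of them a member's. In the CD45-depleted library of tumour-free mice 0 of 12659 kept cells met the rule, which allows a share of up to 0.0237%. That library held just 34 cells with clear endothelial transcripts, so a count of 0 among these allows up to 8.82%, and its nodes enter no comparison here.

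Most members carried endothelial transcripts, but 10 did not. Summed Cdh5, Egfl7 and Esam, which encode the endothelial cadherin, a secreted endothelial factor and a junction molecule, stood at 525 CPM or more in 65 YUMMER1.7 members and at 400 CPM or more in 31 YUMM1.7 members. The remaining 8 members of YUMMER1.7 had at most 209 CPM and the remaining 2 of YUMM1.7 had 0, all of them with exactly 2 identity genes. A UMI of the leukocyte gene Ptprc was held by 6 of these 8 YUMMER1.7 and 1 of these 2 YUMM1.7 cells, and by 6 YUMMER1.7 and 5 YUMM1.7 members with endothelial transcripts. The cells without endothelial transcripts supplied 14.9% of the members' 1889866 UMIs in the YUMMER1.7 library and 1.91% of the 545386 UMIs in the YUMM1.7 library. Values below are therefore given for the 96 members with at least 300 CPM of the 3 endothelial genes. That limit was chosen after seeing the data. Values over all 106 members are printed for some results only, and others differ as well. The limit does not remove every cell with transcripts of another cell type. Of the 96, YUMM1.7 cell 6 (numbered by UMIs within its library) had 11 UMIs of Ptprc, 81 of Ly6d, a B cell and epithelial gene, 97 of Runx2 and 68 of Grm8, beside 2 of the endothelial gene Plvap. YUMMER1.7 cell 54 had 68 UMIs of the fibroblast gene Dcn and 151 of the chemokine gene Ccl20, beside 3 of Plvap. YUMMER1.7 cell 10 had 61 of Dcn and 226 of the chemokine gene Cxcl13, beside 39 of Plvap. YUMMER1.7 cell 1, the member of most UMIs, had 171 of Rgs5, a gene of contractile cells, and 17 of the fibroblastic marker Pdgfrb, beside 152 of Plvap. Beside the label's other markers, Glycam1 was present in 57 of 65 YUMMER1.7 and 30 of 31 YUMM1.7 cells. B cells also carried Glycam1 UMIs, as given below, so detection alone does not mark a cell. Madcam1, the addressin of mucosal nodes, was at 3.73 CPM in YUMMER1.7 and 1.87 CPM in YUMM1.7.

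**Figure D1:**
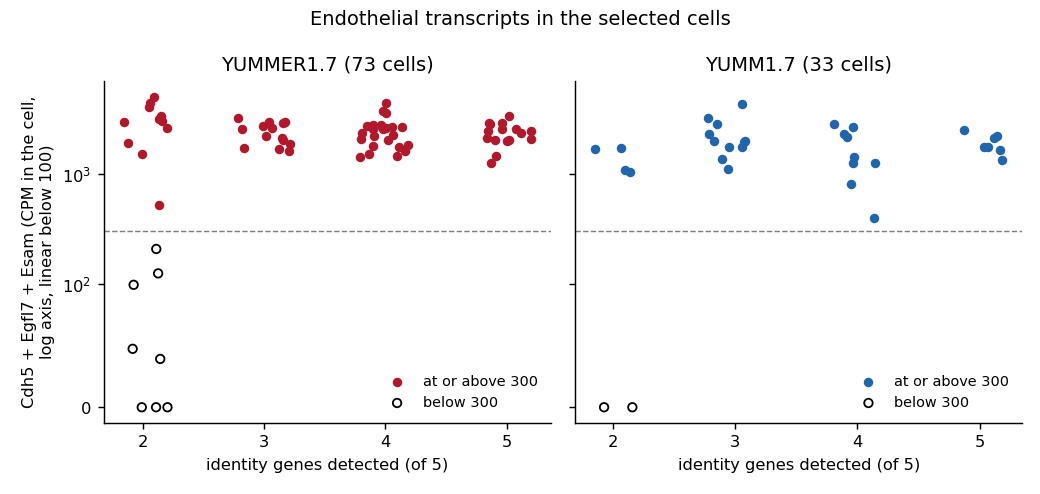
Endothelial transcripts of each member (Cdh5, Egfl7 and Esam summed, CPM in the cell) against the number of identity genes detected, for YUMMER1.7 (left) and YUMM1.7 (right). Open circles are the 8 and 2 members below the dashed line at 300 CPM, all of which have exactly 2 identity genes.

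The cells nearest the threshold were few. Among cells with endothelial transcripts, the 11 YUMMER1.7 and 4 YUMM1.7 cells with exactly 2 identity genes had 4128 CPM in YUMMER1.7 and 2233 CPM in YUMM1.7 of Glycam1. The 16 YUMMER1.7 and 11 YUMM1.7 cells with exactly 1 identity gene, which are not members, had 373 CPM in YUMMER1.7 and 364 CPM in YUMM1.7. Cells with 3 identity genes had 3281 CPM in YUMMER1.7 and 31690 CPM in YUMM1.7, those with 4 had 17198 CPM in YUMMER1.7 and 14925 CPM in YUMM1.7, and those with 5 had 16074 CPM in YUMMER1.7 and 9825 CPM in YUMM1.7. In neither library did the level go up at every step. Ccl21a stood at 54.3 CPM in YUMMER1.7 and 2006 CPM in YUMM1.7 with 2 identity genes. With 1 identity gene it stood at 476 CPM in YUMMER1.7 and 2833 CPM in YUMM1.7, so just below the threshold it was not lower.

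The members' share of the blood endothelium depended on how that endothelium was drawn. By the rule's own terms they were 73 of 412 YUMMER1.7 cells (17.7%, 14.2 to 21.8) and 33 of 428 YUMM1.7 cells (7.71%, 5.37 to 10.7). With endothelial transcripts asked for on both sides they were 65 of 225 YUMMER1.7 cells (28.9%, 23.1 to 35.3) and 31 of 113 YUMM1.7 cells (27.4%, 19.5 to 36.6), so the log2 ratio of shares was 1.20 by the rule and 0.07 with endothelial transcripts. Of all kept cells they made up 1.40% in YUMMER1.7 (1.10 to 1.76) and 0.394% in YUMM1.7 (0.271 to 0.553). The CD45 depletion can set the last pair, and its part was not tested.

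Glycam1, which encodes the secreted sialomucin of these venules (ENSMUSG00000022491, chr15:103562759-103565081, minus strand), set the members apart from cell to cell more than from library to library. Its level in single YUMMER1.7 cells was 0 CPM at the lowest, 4324 CPM at the median and 102719 CPM at the highest, and in single YUMM1.7 cells the same points lay at 0, 2606 and 206379 CPM. The ranges of the libraries overlapped almost whole. Summed over cells it stood at 13474 CPM in YUMMER1.7 and 17229 CPM in YUMM1.7 (log2 −0.35, −0.39 to −0.32), the opposite order to the medians. Below 1000 CPM were 26 of 65 YUMMER1.7 cells (40.0%, 28.0 to 52.9) and 8 of 31 YUMM1.7 cells (25.8%, 11.9 to 44.6). The 5 richest cells held 47.5% of the members' Glycam1 UMIs in YUMMER1.7 and 76.2% in YUMM1.7, so the summed values rest on few cells. Glycam1 RNA was also free in the suspensions, as B cells, which do not make it, carried a UMI in 44.6% of YUMMER1.7 cells (median depth 5342 UMIs) and 29.9% of YUMM1.7 cells (median depth 4212 UMIs), against 87.7% and 96.8% of the deeper YUMMER1.7 and YUMM1.7 members. Summed over B cells it was at 203 CPM in YUMMER1.7 and 95.7 CPM in YUMM1.7.

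Ccl21a, the lymphocyte-arresting chemokine, was at 5828 CPM in YUMMER1.7 and 5858 CPM in YUMM1.7 (log2 −0.01, −0.07 to 0.05). Single cells ran from 0 over a median of 789 to 43108 CPM in YUMMER1.7 and from 0 over 1544 to 32770 CPM in YUMM1.7. B cells held it at 119 CPM in YUMMER1.7 and 68.9 CPM in YUMM1.7.

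**Figure D2:**
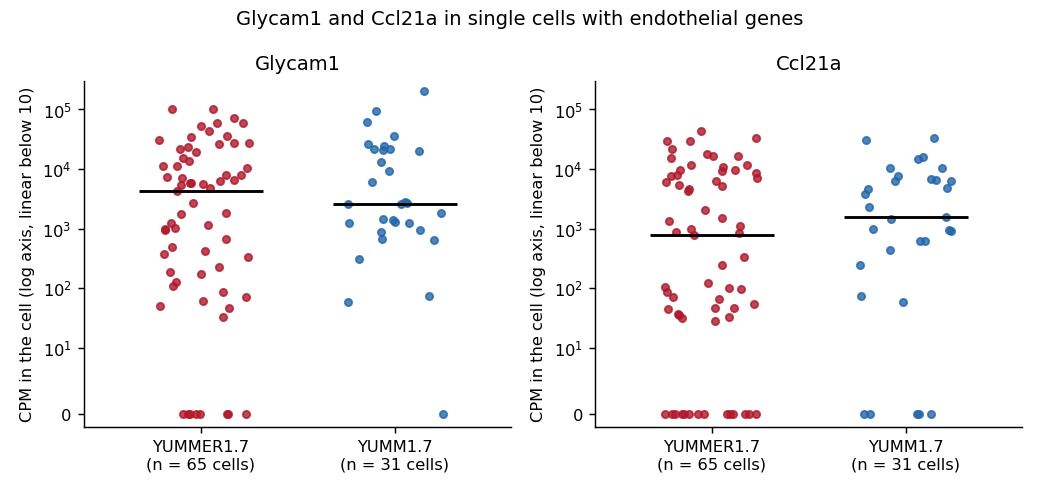
Glycam1 and Ccl21a in each member with endothelial genes (CPM in the cell, log axis that is linear below 10), YUMMER1.7 left (65 cells) and YUMM1.7 right (31 cells); black bars are medians. For both genes the libraries overlap over most of the range, with cells at 0 in each. The highest cell is from YUMM1.7 for Glycam1 and from YUMMER1.7 for Ccl21a.

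The enzymes that build the L-selectin ligand were mostly level or somewhat lower in YUMMER1.7. Of 24 listed genes, 15 outside the rule were measured with at least 50 UMIs, 2 were at least 2-fold lower in YUMMER1.7, none was 2-fold higher, and the median log2 ratio was −0.24. Over all 6028 genes measured in these cells 2.36% were at least 2-fold lower, 2.87% at least 2-fold higher, and the median was 0.01. The other blood endothelial cells, with endothelial transcripts but fewer than 2 identity genes, gave the same list a similar median of −0.26. Of 13 genes measured there 8 lay below 0 and 5 above, with 1 at least 2-fold higher and none 2-fold lower. Gmds, named next, had a log2 ratio of −0.39 in them. Gmds, the first enzyme of GDP-fucose synthesis, stood at 98.2 CPM in YUMMER1.7 and 232 CPM in YUMM1.7 (log2 −1.24, −1.59 to −0.89). B4galt1, a galactosyltransferase, stood at 41.0 CPM in YUMMER1.7 and 84.1 CPM in YUMM1.7 (−1.04). Gcnt1, which branches the core O-glycan, was at 102 CPM in YUMMER1.7 and 159 CPM in YUMM1.7 (−0.64, −1.03 to −0.24), the sulfotransferase Chst2 at 177 CPM in YUMMER1.7 and 241 CPM in YUMM1.7 (−0.45, −0.75 to −0.14) and the sialyltransferase St3gal6 at 334 CPM in YUMMER1.7 and 426 CPM in YUMM1.7 (−0.35, −0.58 to −0.12). B4galt4 went the other way at 80.2 CPM in YUMMER1.7 and 48.6 CPM in YUMM1.7 (0.72, 0.11 to 1.39). The rule's own genes Chst4, the sulfotransferase of these vessels, and Fut7, their fucosyltransferase, were at 194 CPM in YUMMER1.7 and 211 CPM in YUMM1.7 and at 197 CPM in YUMMER1.7 and 237 CPM in YUMM1.7.

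Among 6 measured sialomucins outside the rule only Podxl, encoding podocalyxin, passed 2-fold, at 93.9 CPM in YUMMER1.7 and 33.6 CPM in YUMM1.7 (log2 1.48, 0.77 to 2.27). Cd34 was at 537 CPM in YUMMER1.7 and 447 CPM in YUMM1.7 (0.27, 0.06 to 0.48), Emcn, encoding endomucin, at 480 CPM in YUMMER1.7 and 452 CPM in YUMM1.7, and Cd300lg, encoding the lymphocyte-binding nepmucin, at 221 CPM in YUMMER1.7 and 243 CPM in YUMM1.7. The median of the list was −0.03.

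Across all genes, the rule's members gave 329 genes at least 2-fold higher in YUMMER1.7 and 187 at least 2-fold lower among 6645 measured (4.95% and 2.81%, or 7.77% either way). The 96 members with endothelial transcripts gave 173 higher and 142 lower among 6028 (2.87% and 2.36%, or 5.23% either way). With each of these cells weighted equally, as the mean of single-cell CPM (a combination added after seeing the data), the same genes gave 243 higher and 239 lower (4.03% and 3.96%), nearly equal numbers. Both ways of choosing members had 141 higher and 110 lower genes in common. Of the 173 higher genes 53, and of the 142 lower genes 76, had more than 20% of their UMIs in 1 cell of the library with the higher level. Over all 106 members, to which the shares in 1 cell given next refer, several of the widest ratios rested on few cells. Prtn3, Mpo, Ctsg, Elane and Ms4a3, which encode granule proteins of neutrophil and monocyte precursors and a membrane protein of the same precursors, lay between 57.7 CPM (Ms4a3) and 421 CPM (Prtn3) over all YUMMER1.7 members and had no UMI in any YUMM1.7 member. In the YUMMER1.7 members with endothelial transcripts Prtn3 was at 4.97 CPM and Ms4a3 at 0, so most of these UMIs lay in cells without endothelial genes. On the other side Grm8, a glutamate receptor gene, had all of its UMIs in 1 YUMM1.7 member and none in YUMMER1.7, and Mctp2 and Runx2 had 96.4% and 89.0% of their YUMM1.7 UMIs in 1 cell. Ccl4 and Ccl3, chemokines of activated leukocytes, had 89.5% and 93.9% of their YUMM1.7 UMIs in 1 member, and Dhx40, an RNA helicase gene, 72.7%. Srgap3, a GTPase activator gene, had 54.3% in 1 cell, and Myrip, a myosin and Rab linker gene, 16.7%, at 16.8 CPM in YUMMER1.7 and 67.3 CPM in YUMM1.7 in members with endothelial transcripts (log2 −2.00, −2.78 to −1.24). Dhx40 stood at 41.0 CPM in YUMMER1.7 and 44.9 CPM in YUMM1.7 once members without endothelial transcripts were left out.

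Transcripts of stromal neighbours also differed between the libraries' members. Of 5 fibroblastic markers the sum was 201 CPM in YUMMER1.7 and 9.35 CPM in YUMM1.7, where Pdgfrb and Col1a2 had no UMI. Single YUMMER1.7 cells ran from 0 over 24.8 to 5100 CPM, and 36 of 65 held a UMI, against 4 of 31 YUMM1.7 cells that ran from 0 to 185 CPM. Of 5 mural markers the sum was 206 CPM in YUMMER1.7 and 13.1 CPM in YUMM1.7, where Acta2 and Notch3 were at 0. A UMI of them was held by 10 YUMMER1.7 and 5 YUMM1.7 cells. The median single cell had 0 CPM in both libraries, and the highest had 2121 CPM in YUMMER1.7 and 79.3 CPM in YUMM1.7. Of the mural marker Rgs5, 171 UMIs lay in YUMMER1.7 cell 1, so the YUMMER1.7 sum rests on few cells. Cald1, Des, Rgs5 and Cacna1c, genes of contractile cells, were among the widest differences. Cald1 was at 88.3 CPM in YUMMER1.7 and 5.61 CPM in YUMM1.7, with 56.3% of the YUMMER1.7 UMIs in 1 cell, and Des at 33.6 CPM in YUMMER1.7 and 1.87 CPM in YUMM1.7, with 55.6% in 1 cell. Rgs5 was at 124 CPM in YUMMER1.7 and 7.48 CPM in YUMM1.7, with 85.9% in 1 cell, and Cacna1c at 77.7 CPM in YUMMER1.7 and 1.87 CPM in YUMM1.7, with 84.8% in 1 cell. Cd36, the fatty acid transporter of capillaries, was at 97.0 CPM in YUMMER1.7 and 3.74 CPM in YUMM1.7, with a UMI in 10 YUMMER1.7 and 2 YUMM1.7 cells. Of its YUMMER1.7 UMIs 36.5% lay in 1 cell. Of 5 capillary markers, Cd36 among them, the sum was 450 CPM in YUMMER1.7 and 204 CPM in YUMM1.7 (log2 1.14, 0.85 to 1.45), and 2 of 3 measured were at least 2-fold higher. Single cells ran from 0 over a median of 246 to 6477 CPM in YUMMER1.7 and from 0 over 210 to 675 CPM in YUMM1.7. Markers of B cells summed to 13.7 CPM in YUMMER1.7 and 18.7 CPM in YUMM1.7, of T cells to 8.70 CPM in YUMMER1.7 and 9.35 CPM in YUMM1.7 with Cd3d and Cd3g at 0 in both, and of myeloid cells to 9.33 CPM in YUMMER1.7 and 3.74 CPM in YUMM1.7 with C1qa at 0 in both. The part of these transcripts in the differences below was not tested.

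Several interferon-responsive genes were higher in the YUMMER1.7 members. In the type I interferon list 20 of 31 genes were measured, 5 were at least 2-fold higher, none was 2-fold lower, 18 lay above 0 and the median log2 ratio was 0.58. Over all 6028 genes measured in these members 2.87% were at least 2-fold higher and 2.36% at least 2-fold lower. The other blood endothelial cells (160 in YUMMER1.7, 82 in YUMM1.7), in which 2.3% of 6305 measured genes were at least 2-fold higher and 4% at least 2-fold lower (6.3% either way), gave the same list a median of −0.22. These other cells also held transcripts of blood cells that differed between the libraries. The myeloid adaptor gene Tyrobp was at 471 CPM in YUMMER1.7 and 953 CPM in YUMM1.7, Runx2 at 266 CPM in YUMMER1.7 and 642 CPM in YUMM1.7, and Grm8 at 178 CPM in YUMMER1.7 and 377 CPM in YUMM1.7. Class II genes there summed to 2148 CPM in YUMMER1.7 and 3920 CPM in YUMM1.7, and red cell markers to 10293 CPM in YUMMER1.7 and 4.62 CPM in YUMM1.7. Their part in any value of the other endothelium was not tested, nor was the difference between the cell groups. In the interferon-gamma GTPase list 17 of 21 were measured, 5 were 2-fold higher, 1 was 2-fold lower and the median was 0.37, against −0.16 in the other blood endothelium. The exception was Irf8, a leukocyte transcription factor gene, with 68.8% of its YUMM1.7 UMIs in 1 cell, YUMM1.7 cell 6 described above.

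Promoters of 4 of the higher genes are shown because they carry the letters of the interferon-stimulated response element, which genes of both lists share. The RefSeq windows (GRCm38.p6) run from 250 bases before to 50 after the gene start, and capitals mark the motif searched, which is GAAA, any 2 bases and GAAA again, on either strand and with overlapping matches joined. The letters occurred in 13 of 22 type I interferon genes and in 10 of 15 interferon-gamma GTPase genes with a window, against 3.99% of 27025 genes and 3.44% of all 32851 windows. Irf7 and Ifi44 had no match in theirs, and of the windows listed for Gbp3 the one with matches is printed.
Isg15, chr4:156200769-156201068, minus strand: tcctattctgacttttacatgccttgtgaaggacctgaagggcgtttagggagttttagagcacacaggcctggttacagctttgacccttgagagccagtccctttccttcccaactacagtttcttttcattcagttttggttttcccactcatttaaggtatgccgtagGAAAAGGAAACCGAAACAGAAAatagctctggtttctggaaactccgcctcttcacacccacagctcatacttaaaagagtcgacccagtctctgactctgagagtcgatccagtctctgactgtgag
Irgm1, chr11:48871371-48871670, minus strand: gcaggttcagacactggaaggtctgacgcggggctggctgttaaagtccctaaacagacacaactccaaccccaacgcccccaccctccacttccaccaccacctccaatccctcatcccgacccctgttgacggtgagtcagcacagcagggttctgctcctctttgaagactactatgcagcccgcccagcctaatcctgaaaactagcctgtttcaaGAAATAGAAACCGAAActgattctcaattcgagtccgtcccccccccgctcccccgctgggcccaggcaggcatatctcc
Gbp3, chr3:142559794-142560093, plus strand: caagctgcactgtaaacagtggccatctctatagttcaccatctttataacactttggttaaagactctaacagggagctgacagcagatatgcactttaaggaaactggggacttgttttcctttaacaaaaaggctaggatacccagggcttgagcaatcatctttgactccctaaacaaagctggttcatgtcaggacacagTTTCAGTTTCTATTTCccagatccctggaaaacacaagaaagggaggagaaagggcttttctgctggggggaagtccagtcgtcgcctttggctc
Gbp7, chr3:142530086-142530385, plus strand: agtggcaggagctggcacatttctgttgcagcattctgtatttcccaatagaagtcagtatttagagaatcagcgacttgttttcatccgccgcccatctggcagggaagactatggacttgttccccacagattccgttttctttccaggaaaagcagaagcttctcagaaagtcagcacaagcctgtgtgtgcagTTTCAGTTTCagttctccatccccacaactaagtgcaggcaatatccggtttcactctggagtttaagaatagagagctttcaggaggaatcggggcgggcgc

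Isg15, the ubiquitin-like modifier with 3 matches in the window above, had 298 UMIs in YUMMER1.7 and 27 in YUMM1.7, or 185 CPM in YUMMER1.7 and 50.5 CPM in YUMM1.7 (log2 1.88, 1.31 to 2.50). In single cells it ran from 0 over a median of 108 to 1836 CPM in YUMMER1.7 and from 0 over a median of 0 to 314 CPM in YUMM1.7, so the upper part of the YUMMER1.7 range had no counterpart. Other blood endothelial cells held 167 CPM in YUMMER1.7 and 177 CPM in YUMM1.7, so the YUMM1.7 members were the lowest of the 4 groups of cells. Irf7, the transcription factor that amplifies the response (ENSMUSG00000025498, chr7:141262706-141266481, minus strand), was at 71.5 CPM in YUMMER1.7 and 20.6 CPM in YUMM1.7 (1.80, 0.91 to 2.84), and in the other endothelium at 104 CPM in YUMMER1.7 and 93.9 CPM in YUMM1.7.

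Irgm1, an immunity-related GTPase, was at 56.6 CPM in YUMMER1.7 and 16.8 CPM in YUMM1.7 (log2 1.75, 0.76 to 2.92). The guanylate-binding proteins Gbp3 and Gbp7 were at 57.2 CPM in YUMMER1.7 and 20.6 CPM in YUMM1.7 (1.48, 0.57 to 2.53) and at 127 CPM in YUMMER1.7 and 59.8 CPM in YUMM1.7 (1.08, 0.54 to 1.67). Igtp and Gbp2, of the same families, had log2 ratios of 1.39 and 1.21. Each of these 5 GTPase genes has a match in a window. Mx2, an antiviral GTPase, was at 29.2 CPM in YUMMER1.7 and 5.61 CPM in YUMM1.7 (2.38, 0.75 to 4.71), the nucleic acid sensor Zbp1 at 55.3 CPM in YUMMER1.7 and 24.3 CPM in YUMM1.7 (1.19, 0.34 to 2.15) and Ifit3 at 32.3 CPM in YUMMER1.7 and 13.1 CPM in YUMM1.7 (1.31, 0.16 to 2.69). The membrane protein Bst2 was at 911 CPM in YUMMER1.7 and 621 CPM in YUMM1.7 (0.55, 0.38 to 0.73), while in the other endothelium its log2 ratio was −0.28. Ddx58, the RNA sensor RIG-I, lay below 0 (−0.23, −0.66 to 0.21).

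**Figure D3:**
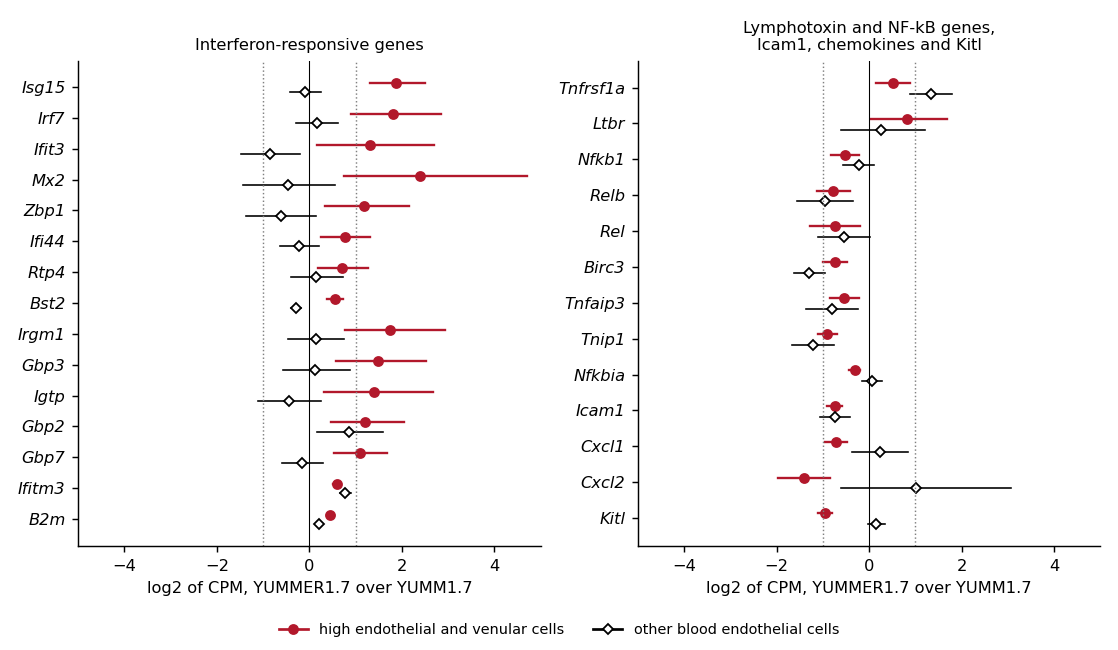
Log2 ratio of CPM, YUMMER1.7 over YUMM1.7, with exact 95% intervals (counting error only) for members with endothelial genes (filled circles) and other blood endothelial cells (open diamonds); dotted lines mark 2-fold. Isg15 lies at 1.88 in members and −0.09 in other endothelium, and Relb, Tnip1 and Icam1 lie left of 0 in both.

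No class I antigen presentation gene passed 2-fold. Of 22 measured genes 17 lay above 0 and 5 below, and the median was 0.29. B2m, the light chain, was at 4110 CPM in YUMMER1.7 and 3000 CPM in YUMM1.7 (log2 0.45, 0.38 to 0.53), H2-D1 at 2702 CPM in YUMMER1.7 and 2073 CPM in YUMM1.7 (0.38, 0.29 to 0.48), and the nonclassical H2-Q4 and H2-T22 at 216 CPM in YUMMER1.7 and 118 CPM in YUMM1.7 (0.87, 0.48 to 1.28) and at 216 CPM in YUMMER1.7 and 120 CPM in YUMM1.7 (0.85, 0.47 to 1.26). H2-K1 was level (0.03, −0.04 to 0.11). All 8 genes of the Ifitm and Ly6 list lay above 0, with a median of 0.34, among them the viral entry restriction factor Ifitm3 at 4498 CPM in YUMMER1.7 and 2989 CPM in YUMM1.7 (0.59, 0.51 to 0.67). In the other endothelium Ifitm3 had a log2 ratio of 0.78.

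Class II genes went the other way, with part of the summed UMIs in single cells. All 5 measured were at least 2-fold lower in YUMMER1.7 (2.36% over all genes), with a median of −1.87, against −0.89 in the other blood endothelium. The alpha chain gene H2-Aa had 37 UMIs in YUMMER1.7 and 62 UMIs in YUMM1.7 (log2 −2.33, −2.96 to −1.72) and the invariant chain Cd74 was at 115 CPM in YUMMER1.7 and 338 CPM in YUMM1.7 (−1.56, −1.86 to −1.25). In YUMM1.7, 62.9% of the H2-Aa and 40.3% of the Cd74 UMIs lay in 1 cell. It was YUMM1.7 cell 6, described above with its Ptprc and Ly6d UMIs, so these 2 ratios rest in part on it. Over the settings of the last section the list median ran from −2.20 to −0.76. H2-Aa ran from −2.64 to −1.07 there and Cd74 from −1.88 to −0.71. Cd74 was detected in 49 of 65 YUMMER1.7 and 24 of 31 YUMM1.7 cells, with medians of 57.3 CPM in YUMMER1.7 and 159 CPM in YUMM1.7. H2-Aa was detected in 26 YUMMER1.7 and 15 YUMM1.7 cells, with a median of 0 in both.

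No gene of the lymphotoxin and NF-kB pathway passed 2-fold. Of 20 measured 14 lay below 0 and 6 above, and the median was −0.18, against −0.42 in the other blood endothelium. Of the receptors, Ltbr, the lymphotoxin-beta receptor, was at 52.9 CPM in YUMMER1.7 and 29.9 CPM in YUMM1.7 (log2 0.82, 0.04 to 1.69) and Tnfrsf1a, the tumour necrosis factor receptor, at 208 CPM in YUMMER1.7 and 146 CPM in YUMM1.7 (0.51, 0.16 to 0.89). Of the transcription factor subunits, Relb was at 115 CPM in YUMMER1.7 and 196 CPM in YUMM1.7 (−0.77, −1.12 to −0.41), Rel at 53.5 CPM in YUMMER1.7 and 89.7 CPM in YUMM1.7 (−0.75, −1.27 to −0.21) and Nfkb1 at 177 CPM in YUMMER1.7 and 254 CPM in YUMM1.7 (−0.53, −0.83 to −0.22). The feedback regulators lay below 0 as well, Tnip1 at 298 CPM in YUMMER1.7 and 557 CPM in YUMM1.7 (−0.90, −1.11 to −0.69), Birc3 at 227 CPM in YUMMER1.7 and 379 CPM in YUMM1.7 (−0.74, −0.99 to −0.49), Tnfaip3 (−0.54, −0.84 to −0.23) and Nfkbia (−0.31, −0.44 to −0.19).

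Icam1, the integrin ligand of firm adhesion (ENSMUSG00000037405, chr9:21015985-21028817, plus strand), was at 504 CPM in YUMMER1.7 and 845 CPM in YUMM1.7 (log2 −0.75, −0.91 to −0.58). Single cells ran from 0 over a median of 330 to 4011 CPM in YUMMER1.7 and from 0 over 552 to 5506 CPM in YUMM1.7, so the ranges overlapped. The other endothelium had nearly the same ratio (−0.74, −1.07 to −0.41). None of the 15 measured adhesion genes outside the rule passed 2-fold and their median was 0.05. Vcam1 was at 147 CPM in YUMMER1.7 and 153 CPM in YUMM1.7, while Mcam, a junctional adhesion molecule of the endothelium, was at 178 CPM in YUMMER1.7 and 89.7 CPM in YUMM1.7 (0.99, 0.55 to 1.46) and the ectoenzyme Bst1 at 99.5 CPM in YUMMER1.7 and 54.2 CPM in YUMM1.7 (0.88). In the rule itself E-selectin (Sele) was at 181 CPM in YUMMER1.7 and 322 CPM in YUMM1.7 and P-selectin (Selp) at 481 CPM in YUMMER1.7 and 346 CPM in YUMM1.7.

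Chemokines split. Of 9 measured outside the rule, 5 were at least 2-fold higher and 1 was 2-fold lower, with a median of 1.55. Over all genes 2.87% were 2-fold higher and 2.36% 2-fold lower. For 3 of the 5, most UMIs of YUMMER1.7 lay in 1 cell, with 85.9% of the Ccl19, 76.3% of the Cxcl13 and 88.2% of the Ccl2 UMIs. It was YUMMER1.7 cell 10, described above with its Dcn UMIs, so the list's count and median rest in part on it. Not concentrated in this way was Cxcl9, an interferon-gamma-induced ligand of CXCR3, at 51.6 CPM in YUMMER1.7 and 5.61 CPM in YUMM1.7 (log2 3.20), from 83 UMIs in YUMMER1.7 and 3 UMIs in YUMM1.7, and in the other endothelium at 196 CPM in YUMMER1.7 and 55.4 CPM in YUMM1.7. Cxcl12 was at 54.7 CPM in YUMMER1.7 and 18.7 CPM in YUMM1.7 (1.55, 0.60 to 2.66) and Cxcl10 at 111 CPM in YUMMER1.7 and 76.6 CPM in YUMM1.7 (0.53, 0.03 to 1.06) with 43.9% of the YUMM1.7 UMIs in 1 cell. The neutrophil chemoattractants Cxcl2 and Cxcl1 were lower, at 37.9 CPM in YUMMER1.7 and 101 CPM in YUMM1.7 (−1.41, −1.96 to −0.86) and at 267 CPM in YUMMER1.7 and 441 CPM in YUMM1.7 (−0.72, −0.95 to −0.49). Kitl, the stem cell factor gene (ENSMUSG00000019966, chr10:100015630-100100416, plus strand), was at 531 CPM in YUMMER1.7 and 1032 CPM in YUMM1.7 (−0.96, −1.11 to −0.80), and in the other endothelium at 626 CPM in YUMMER1.7 and 562 CPM in YUMM1.7. Enpp2, which encodes autotaxin, the lysophosphatidic acid producer of these venules, was at 1117 CPM in YUMMER1.7 and 1594 CPM in YUMM1.7 (−0.51, −0.63 to −0.39).

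Endothelial genes were near level as a list, and venous genes were somewhat higher in YUMMER1.7. The endothelial list had 1 of 18 genes 2-fold higher and a median of 0.02, against 0.51 in the other blood endothelium. The venous list had 1 of 9 genes 2-fold higher, 6 above 0 and 3 below, and a median of 0.48, against 0.20 there. Over all genes 2.87% were 2-fold higher and the median was 0.01. Sox18, an endothelial transcription factor gene, was at 235 CPM in YUMMER1.7 and 114 CPM in YUMM1.7 (log2 1.04, 0.65 to 1.46), Aplnr, the apelin receptor of veins, at 183 CPM in YUMMER1.7 and 82.2 CPM in YUMM1.7 (1.15, 0.69 to 1.64) with 61.4% of the YUMM1.7 UMIs in 1 cell, and Nr2f2, the venous fate factor, at 270 CPM in YUMMER1.7 and 181 CPM in YUMM1.7 (0.58, 0.26 to 0.91). Lrg1, a secreted glycoprotein of venules, was at 2970 CPM in YUMMER1.7 and 2129 CPM in YUMM1.7 (0.48, 0.39 to 0.57), and single cells ran from 247 over 2674 to 8362 CPM in YUMMER1.7 and from 129 over 2011 to 5951 CPM in YUMM1.7.

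In the Notch and endothelial flow list 2 of 16 measured genes were 2-fold higher (2.87% over all genes) and none was 2-fold lower. The median was 0.29, below the 0.59 of the other blood endothelium. The 2 were Id1 and Id3, transcriptional inhibitors induced by BMP signalling. Id1 was at 431 CPM in YUMMER1.7 and 174 CPM in YUMM1.7 (log2 1.31), and Id3 at 630 CPM in YUMMER1.7 and 314 CPM in YUMM1.7. Short of 2-fold were the flow-induced factor Klf2 at 395 CPM in YUMMER1.7 and 232 CPM in YUMM1.7 (0.77, 0.49 to 1.06) and the co-receptor endoglin (Eng) at 568 CPM in YUMMER1.7 and 363 CPM in YUMM1.7 (0.65, 0.42 to 0.88). From other lists, thrombomodulin (Thbd) was at 83.9 CPM in YUMMER1.7 and 35.5 CPM in YUMM1.7 (1.24, 0.54 to 2.02), the membrane protease Mmp14 at 144 CPM in YUMMER1.7 and 65.4 CPM in YUMM1.7 (1.14) and the matrix protein gene Sparc at 1648 CPM in YUMMER1.7 and 1137 CPM in YUMM1.7 (0.54, 0.41 to 0.67).

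Some cell cycle genes were higher, on few cells. Of 16 measured, 5 were 2-fold higher, none was 2-fold lower, and the median was 0.49 (1.02 over all members, with 11 of 21 genes 2-fold higher). Over all genes 2.87% were 2-fold higher in these cells and 4.95% in all members. Top2a was at 76.5 CPM in YUMMER1.7 and 24.3 CPM in YUMM1.7 (log2 1.65, 0.83 to 2.60), with 32.5% of its YUMMER1.7 and 23.1% of its YUMM1.7 UMIs in 1 cell, and Mki67 at 65.3 CPM in YUMMER1.7 and 22.4 CPM in YUMM1.7 with 57.1% of the YUMMER1.7 UMIs in 1 cell. The replication genes Mcm3 and Pcna, chosen after their values were seen, were at 48.5 CPM in YUMMER1.7 and 61.7 CPM in YUMM1.7 (−0.35, −0.95 to 0.29) and at 69.0 CPM in YUMMER1.7 and 82.2 CPM in YUMM1.7 (−0.25, −0.77 to 0.29).

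Heat shock genes all lay above 0, with 2 of 13 at least 2-fold higher (Hsph1 and Bag3) and a median of 0.55, against 0.40 in the other blood endothelium. Of 24 measured immediate early genes 2 passed 2-fold, Socs3 and Cebpb, and the median was 0.26, against 0.35 in the other endothelium. The 17 measured glycolysis and hypoxia genes had none past 2-fold and a median of 0.24, the 25 of the secretory pathway 1, Creld2, and a median of 0.12, and the 20 of the basement membrane and matrix 1, Bgn with 77.8% of its YUMM1.7 UMIs in 1 cell, and a median of 0.21. Of 12 measured lipid genes 3 were 2-fold higher, Cd36, Fabp5 and Plin2, with a median of 0.06. Of 13 coagulation and vessel tone genes 1 was 2-fold higher (Thbd), of 15 angiogenic genes 1 (Mmp14), of 9 cytokine genes 1 (Pdgfb), and of 7 lysophospholipid genes none, with medians of 0.20, 0.26, −0.21 and 0.21. Over all 6028 genes 2.87% were at least 2-fold higher and 2.36% at least 2-fold lower, so 1 such gene in a list is no finding.

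**Figure D4:**
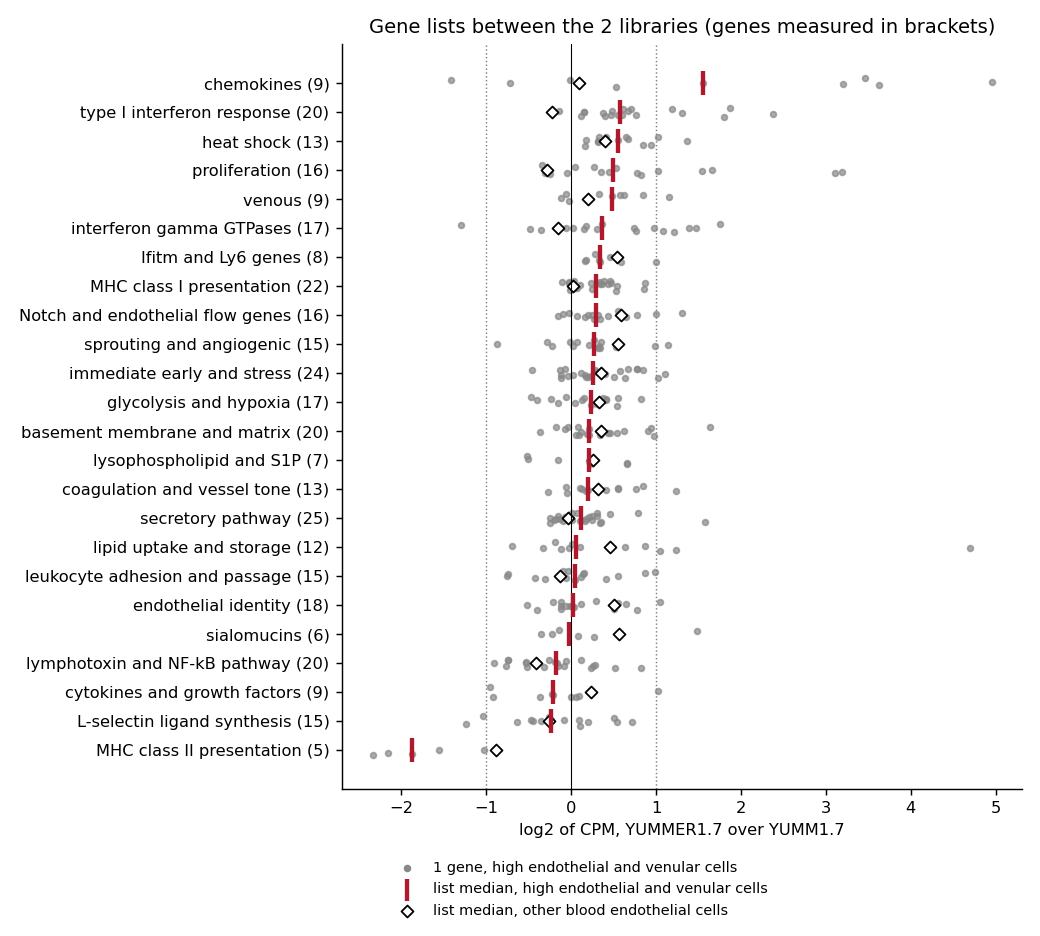
Log2 ratio of CPM, YUMMER1.7 over YUMM1.7, for each measured gene of 24 lists in members with endothelial genes (grey points), with the list median in these cells (red bar) and in other blood endothelial cells (open diamond); dotted lines mark 2-fold. The type I interferon median lies at 0.58 in members and −0.22 in other endothelium, and the class II median at −1.87.

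A second set of genes was named after seeing the data, from members with endothelial transcripts, as those with the bounds farthest from 0 among genes with at most 20% of the higher library's UMIs in 1 cell. Higher in YUMMER1.7 were Gadd45g, a stress-induced growth arrest gene, at 252 CPM in YUMMER1.7 and 67.3 CPM in YUMM1.7 (log2 1.91, 1.41 to 2.44), Thbs1, encoding thrombospondin-1, at 148 CPM in YUMMER1.7 and 35.5 CPM in YUMM1.7 (2.06, 1.38 to 2.82), Errfi1, an inhibitor of the epidermal growth factor receptor, at 122 CPM in YUMMER1.7 and 39.3 CPM in YUMM1.7 (1.64, 0.99 to 2.37), Rhob, a small GTPase gene, at 90.2 CPM in YUMMER1.7 and 29.9 CPM in YUMM1.7 (1.59, 0.84 to 2.44), and Meis2, a homeobox gene, with 99 UMIs in YUMMER1.7 and 8 UMIs in YUMM1.7 (2.04, 1.01 to 3.29). Isg15 and Irf7 were in the same 15, as were Socs3 at 347 CPM in YUMMER1.7 and 161 CPM in YUMM1.7 (1.11, 0.78 to 1.45) and Bag3. Lower were Kirrel3, an adhesion molecule gene, at 81.5 CPM in YUMMER1.7 and 279 CPM in YUMM1.7 (−1.77, −2.12 to −1.43), Stox2 at 254 CPM in YUMMER1.7 and 576 CPM in YUMM1.7 (−1.18, −1.40 to −0.96), the orphan nuclear receptor gene Esrrg at 246 CPM in YUMMER1.7 and 557 CPM in YUMM1.7 (−1.18, −1.40 to −0.96), Mecom, a transcription factor gene of endothelium, at 491 CPM in YUMMER1.7 and 944 CPM in YUMM1.7 (−0.94, −1.11 to −0.78), and Gmds and Kitl. Robo2, a guidance receptor gene, was at 154 CPM in YUMMER1.7 and 652 CPM in YUMM1.7 (−2.09, −2.33 to −1.85), with 26.7% of its YUMMER1.7 and 38.7% of its YUMM1.7 UMIs in 1 cell. Timp4, a protease inhibitor gene, was at 2.49 CPM in YUMMER1.7 and 125 CPM in YUMM1.7, with UMIs in 4 YUMMER1.7 and 5 YUMM1.7 cells. In the other blood endothelium the log2 ratio was 1.07 for Gadd45g, 1.55 for Thbs1, 0.22 for Errfi1 and 0.47 for Rhob. There Socs3 was at 0.70, Bag3 at 0.53 and Meis2 at −0.90. Of the lower genes, Kirrel3 was at −0.70, Stox2 at −0.51, Esrrg at −2.11, Mecom at −0.46 and Gmds at −0.39. Robo2 was at −2.57 there and Timp4 at 1.10. Meis2, Timp4, Kitl (0.16) and Isg15 (−0.09) thus had the other sign.

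The lower genes were long. The 15 lower ones had a median gene length of 359 kb and the 15 higher ones 14.3 kb (GENCODE vM21 annotation of GRCm38). Over all measured genes the median log2 ratio in members was lower the longer the genes, at 0.21, 0.11, −0.05 and −0.29 from the shortest to the longest of 4 classes. These classes were of near equal size in the members only, and nearly the same length limits gave unequal classes in the other cells. In the other blood endothelium (1449, 1515, 1644 and 1692 genes) the median was 0.08, 0.02, −0.10 and −0.20. In kept cells outside the blood endothelium (6700, 4619, 3855 and 3184 genes) the median was 0.07, 0.05, −0.02 and −0.00. The part of gene length in single genes was not tested.

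**Figure D5:**
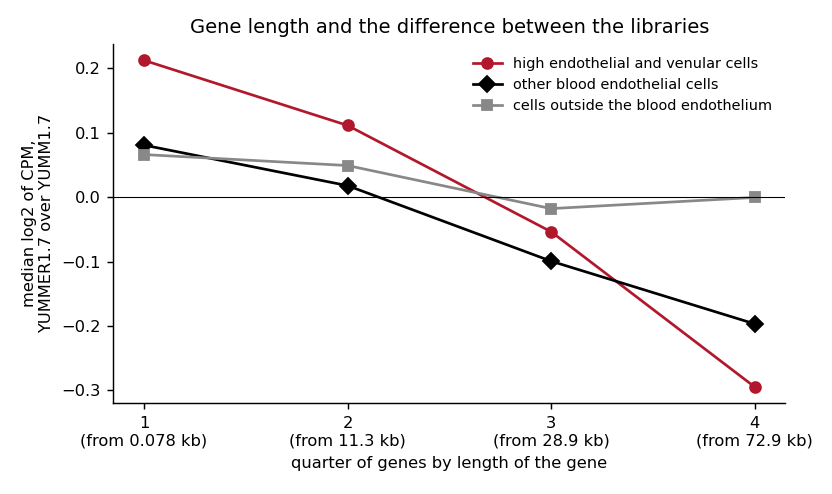
Median log2 ratio of CPM, YUMMER1.7 over YUMM1.7, in 4 classes of genes by gene length (shortest left), for members with endothelial genes, other blood endothelial cells and cells outside the blood endothelium. The members run from 0.21 in the shortest class to −0.29 in the longest.

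The members were also set beside the other blood endothelium of their own library, which describes the rule's choice. Of 4504 genes measured on both sides, 183 were at least 2-fold higher (4.06%) and 362 at least 2-fold lower (8.04%) in both libraries. Glycam1 was at 13474 against 121 CPM in YUMMER1.7 and 17229 against 228 CPM in YUMM1.7. Ubd, the ubiquitin-like FAT10, was at 2543 against 52.2 CPM in YUMMER1.7 and 2028 against 72.3 CPM in YUMM1.7. Dclk1, a kinase gene, was at 686 against 15.6 CPM in YUMMER1.7 and 882 against 67.7 CPM in YUMM1.7, Pglyrp1, a peptidoglycan-binding protein gene, at 378 against 24.2 CPM in YUMMER1.7 and 437 against 32.3 CPM in YUMM1.7, and Vcan, encoding versican, at 160 against 9.35 CPM in YUMMER1.7 and 129 against 4.62 CPM in YUMM1.7. Von Willebrand factor (Vwf) was at 157 against 20.3 CPM in YUMMER1.7 and 165 against 13.9 CPM in YUMM1.7. Capillary genes were lower in members, Gpihbp1 at 28.6 against 682 CPM in YUMMER1.7 and 1.87 against 331 CPM in YUMM1.7, and the arterial connexin gene Gja5 had no UMI in members of either library, against 81.0 CPM in YUMMER1.7 and 43.1 CPM in YUMM1.7 in the other endothelium. Tyrobp was at 1.87 CPM in YUMMER1.7 and 48.6 CPM in YUMM1.7 in members, below the other endothelium of either library.

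A few members lacked Chst4 and Fut7. In YUMMER1.7 they were 9 of the 65 cells, and in YUMM1.7 3 of 31, too few to describe. Since the rule asks for 2 identity genes, each of these cells had at least 2 of Ackr1, Sele and Selp, so the choice of the 9 cells bears on those genes, and Selp at 1042 CPM in them, against 427 CPM in the 56 cells with Chst4 or Fut7, is no finding. The 9 cells had 2 UMIs of Ccl21a (14.4 CPM), against 6379 CPM in the 56. Glycam1 was at 1243 against 14634 CPM, with 49.7% of the UMIs in 1 of the 9 cells. Gcnt1 had no UMI in them, against 112 CPM, and Enpp2 was at 129 against 1210 CPM. The values that were higher in the 9 cells rested on single cells to differing degrees. Vwf was at 539 against 121 CPM, with 46.7% of the UMIs in 1 of the 9, and Nr2f2 at 496 against 249 CPM, with 24.6% in 1. The capillary gene Cd36 was at 611 against 48.3 CPM, with 60.0% in 1, and Fabp4, a fatty acid carrier of capillary and venous endothelium, at 4030 against 575 CPM, with 52.4% in 1. Ccl20 was at 1092 against 11.6 CPM, with 99.3% in 1, and Dcn at 510 against 53.8 CPM, with 95.8% in 1. Most of the Dcn and Ccl20 UMIs were those of YUMMER1.7 cell 54. Over all members with endothelial transcripts Fabp4 was at 874 CPM in YUMMER1.7 and 477 CPM in YUMM1.7.

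Among 2940 genes detected in at least 50% of these cells in each library, the rank correlation with Glycam1 was taken within each library as a description, a measure added after seeing the data. It runs over 65 YUMMER1.7 and 31 YUMM1.7 cells that share a library and its free RNA and differ in depth. Ranked by the lower of the 2 values, the list was led by Ctsl, a lysosomal protease gene (0.63 in YUMMER1.7 and 0.61 in YUMM1.7), Ubd (0.59 in YUMMER1.7 and 0.56 in YUMM1.7), Pglyrp1 (0.65 in YUMMER1.7 and 0.56 in YUMM1.7) and Lrg1 (0.54 in YUMMER1.7 and 0.60 in YUMM1.7), and also held Clu, Psmb7, Fut7 (0.41 in YUMMER1.7 and 0.50 in YUMM1.7) and Ccl21a (0.40 in YUMMER1.7 and 0.59 in YUMM1.7). The opposite end was led by Ptprg, a receptor phosphatase gene (−0.45 in YUMMER1.7 and −0.66 in YUMM1.7), and Nrp1, a VEGF co-receptor gene (−0.44 in YUMMER1.7 and −0.65 in YUMM1.7). E-selectin, Sele, came next (−0.42 in YUMMER1.7 and −0.56 in YUMM1.7). Fut7 and Sele are identity genes of the rule, so the choice of members bears on their correlations with Glycam1. The part of that choice was not tested.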

How the data were processed

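The deposited matrices hold raw UMI counts per gene and cell barcode, made with Cell Ranger, version 8.0.1 and build mm10 per the submitters' processing notes. Per the file headers the 3 CD45-depleted matrices came from version 7.0.0 and the enriched ones from 8.0.1, with 54752 and 32285 genes. Whether introns were counted is not given in the sources used here. Counts were read in Python 3.11.15 with SciPy 1.17.1. The members, gene lists and tests were chosen with earlier results of these data known. Cells were filtered and selected as stated, their counts summed per library, and genes with at least 50 UMIs over both libraries compared as a log2 ratio of CPM with an exact conditional binomial 95% interval. A 2-fold ratio counts as called. No count model was fitted, as each tumour line has 1 library. The procedure was tested on simulated data. The genes named by rule are the 12 with the highest lower bounds and the 12 with the lowest upper bounds over all members, apart from the rule's genes, that reach at least 0.5 times the level of the library's other cells. 1 of them is not reported here. A second 15 per direction, chosen after seeing the data, come from members with endothelial transcripts, with at most 20% of the higher library's UMIs in 1 cell and UMIs in at least 1 of 3 of its cells. Doublets were not removed from the main values: Scrublet (scanpy 1.11.5) called 0% by its automatic threshold, so cells above the 95th percentile of its score were left out as an alternative. Promoters are RefSeq windows, and gene positions come from GENCODE vM21. Intervals and limits on a count of 0 (3 counts) cover counting error only.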

Additional observations from a re-analysis of the deposited data

Results flagged for a closer look

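The library of YUMMER1.7-draining nodes enriched with CD11b and CD11c beads, which the comparison leaves out, also held members of the rule. In it 8 of 6570 kept cells met the rule, against 5 of 7114 in the YUMM1.7 and 6 of 9726 in the tumour-free enriched library. These members carried 453 Glycam1 UMIs in YUMMER1.7, 4 in YUMM1.7 and 0 in tumour-free nodes. Of the 453 UMIs 450 lay in the 1 member with endothelial transcripts. Below 300 CPM of the endothelial genes lay 7 members in YUMMER1.7, 4 in YUMM1.7 and 5 in tumour-free nodes, and Ptprc was detected in 7 members in YUMMER1.7, 4 in YUMM1.7 and 5 in tumour-free nodes. The values are given without a comparison between groups.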

How the results depend on the processing

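No paired analysis was possible because each tumour line has 1 library. The log2 ratio of the share, 1.20 by the rule, was 0.069 without cells with leukocyte transcripts, 0.075 with endothelial genes (chosen after seeing the data) and 0.31 with cells thinned to 2000 UMIs. The genes at least 2-fold higher and lower, 329 and 187 by the rule, were 350 and 116 at 5% mitochondrial UMIs, 146 and 81 with 3 of 5 identity genes, 148 and 129 without leukocyte transcripts, 173 and 142 with endothelial genes (243 and 239 as the mean of single-cell CPM), 874 and 452 from 20 UMIs, 125 and 89 from 100 UMIs, 1295 and 1877 from 1 UMI in each library, 215 and 107 in members without Chst4 and Fut7, and 19 and 28 with members thinned to 2000 UMIs. The median of the chemokine list turned to −0.12 without leukocyte transcripts and −0.14 with thinned members. Medians near 0 also changed sign, for the lipid list in 9 of 18 settings (−0.11 to 0.88), leukocyte adhesion in 8 (−0.084 to 0.20), endothelial identity in 5 (−0.20 to 0.11), sialomucins in 4 of 18 (−0.20 to 0.23) and cytokines in 1 of 16 (highest 0.058). In members without Chst4 and Fut7 the medians of coagulation (−0.60), glycolysis (−0.61), immediate early (−0.64), angiogenic (−0.22) and venous genes (−0.16) fell below 0, and with thinned members those of coagulation (−0.19) and angiogenic genes (−0.079). Of the single genes, H2-K1 had the other sign in 6 of 15 settings (−0.19 to 0.35) and Nr2f2 in 2, at −0.055 without leukocyte transcripts and −0.23 without Chst4 and Fut7. Ccl21a was at 0.048 with 3 of 5 identity genes. Dhx40 was at 0.0037 with 3 of 5 identity genes. In members without Chst4 and Fut7, Podxl was at −0.36, Chst2 at 0.69, Fabp4 at −0.13, Ackr3 at −0.19 and Thbd at −2.77. In thinned members Kansl1l was at 1.18, Traf2 at −0.15, Gbp2 at −1.15, Sox18 at −0.38 and Stmn1 at −0.058. The cause was not tested; higher minimum counts and thinning leave fewer genes measured. Over the settings that gave a value, the type I interferon list median ran from 0.39 to 0.67, the interferon-gamma GTPase median from 0.14 to 0.54 and the NF-kB median from −0.89 to −0.18. Isg15 ran from 1.68 to 2.76, and Glycam1 from −0.73 to 0.22 with the other sign in 2 settings. The 33 YUMM1.7 members and 1 library per line limit every value.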
